A study of Mus musculus with 6 samples.

Results

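The DNA replication and E2F target genes described here are 41 genes selected by symbol: subunits of the replication origin and fork machinery, fork-associated chromatin, repair and checkpoint genes, and the transcription factors E2f1 and E2f2. These members, like the other gene lists below, were chosen with earlier results of these data known. All 41 members were found among the 53819 genes of the deposited count table. All 41 were also among the 15232 genes that passed the filter on low counts. RNA was sequenced from bcCML cells, a mouse model of blast-crisis chronic myeloid leukaemia, sorted from the spleens of transplanted mice. The cells of both groups carried BCR-ABL and NUP98-HOXA9, the fusion genes that drive this leukaemia. Of the 6 libraries, 3 had the genotype SLC6A6 KO (KO1, KO2 and KO3) and 3 the genotype SLC6A6 WT (WT1, WT2 and WT3). The gene Slc6a6 codes for a membrane carrier of taurine, and the comparison asks what its loss changes in these cells. The series title speaks of a knock-down where the genotypes read KO; the sources used here do not name the allele, any Cre driver, the age of the mice or the sorting marker. It is also not stated that a group's libraries came from separate animals. Each p-value therefore sets a group difference only against the spread of these samples, which may be technical.

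Before a cell can copy its DNA, the origin recognition complex, Cdc6 and Cdt1 load the Mcm2 to Mcm7 helicase ring onto origins. Cdc45 and the GINS complex then activate the ring, and polymerases, the sliding clamp Pcna and its loader, RPA and DNA ligase copy the strands. Many of these genes are transcribed at the entry into S phase through E2F factors, which pair with DP proteins and are held in check by Rb-family pocket proteins, so their RNA is commonly read as a proliferation signature in leukaemia.

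The libraries held between 42829294 and 49537098 counts, and the lowest count of any member in any library was 385, for Ung, where counting error alone is 5.10%. Levels are given as CPM, counts scaled to library size, and the values of a group are listed in the order of the library numbers. The targeted transcript, Slc6a6, ranged from 125 to 133 CPM in KO and from 145 to 151 CPM in WT, and the difference did not pass the test (adjusted p 0.196). The libraries labelled KO carried 10274 to 11236 counts of 4 Y-linked genes and those labelled WT 0 to 1, so the genotype and the sex of the cells cannot be told apart in these libraries. The 10 leukaemia and myeloid markers summed to 439 to 542 CPM in KO and 372 to 612 CPM in WT, but differed among themselves. Ptprc, Spi1, Hoxa9, Meis1 and Kit stood at 9.90 CPM or more in every library, Cebpa reached at most 0.81 CPM and Itgam 1.76 CPM, and Cebpa, Mpo and Csf3r were at 0 in some libraries. Kit, a receptor of early blood progenitors, was the marker of this list that passed the test: it rose 3.64-fold, from 25.6, 9.90 and 18.1 CPM in WT to 75.9, 74.8 and 44.6 CPM in KO (adjusted p 0.0450). Without passing it, Csf3r stood at 23.1, 1.87 and 7.25 CPM in KO and 1.29, 0.46 and 0 CPM in WT (adjusted p 0.137), and Hoxa9 at 101, 97.3 and 108 CPM in KO and 140.0, 132 and 129 CPM in WT (adjusted p 0.0502). Erythroid markers summed to 10400 to 33461 CPM in KO and 4682 to 14855 CPM in WT.

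Summed over the 41 genes, the members took 0.960%, 0.851% and 1.01% of all counts in KO1, KO2 and KO3, against 0.675%, 0.792% and 0.794% in WT1, WT2 and WT3. The KO shares all lay above the WT shares, but KO2 was closer to WT2 and WT3 than to the other KO libraries. Gene by gene, 38 of the 41 members had a positive log2 fold change (KO over WT), against 50.9% of all genes tested, and their median was 0.31 against 0.01 over all genes. The quartiles of the members were 0.24 and 0.45, so most members differed by less than 1.5-fold; 5 reached it. In edgeR's quasi-likelihood test with Benjamini-Hochberg adjustment over all 15232 genes, 1 member, E2f1, was higher in KO at an adjusted p under 0.05, where 1.64% of all genes were called higher. No member was called lower, where 1.92% of all genes were. At an unadjusted p under 0.05, 21 members were higher and 0 lower, beside 11.6% and 10.4% of all genes. In 18 members every KO library lay above every WT library, which held for 13.6% of all genes; the reverse held for 0 members and 14.4% of all genes. In bulk RNA, fewer cells of a type and less RNA per cell cannot be told apart, and this holds for each level given here.

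**Figure D1:**
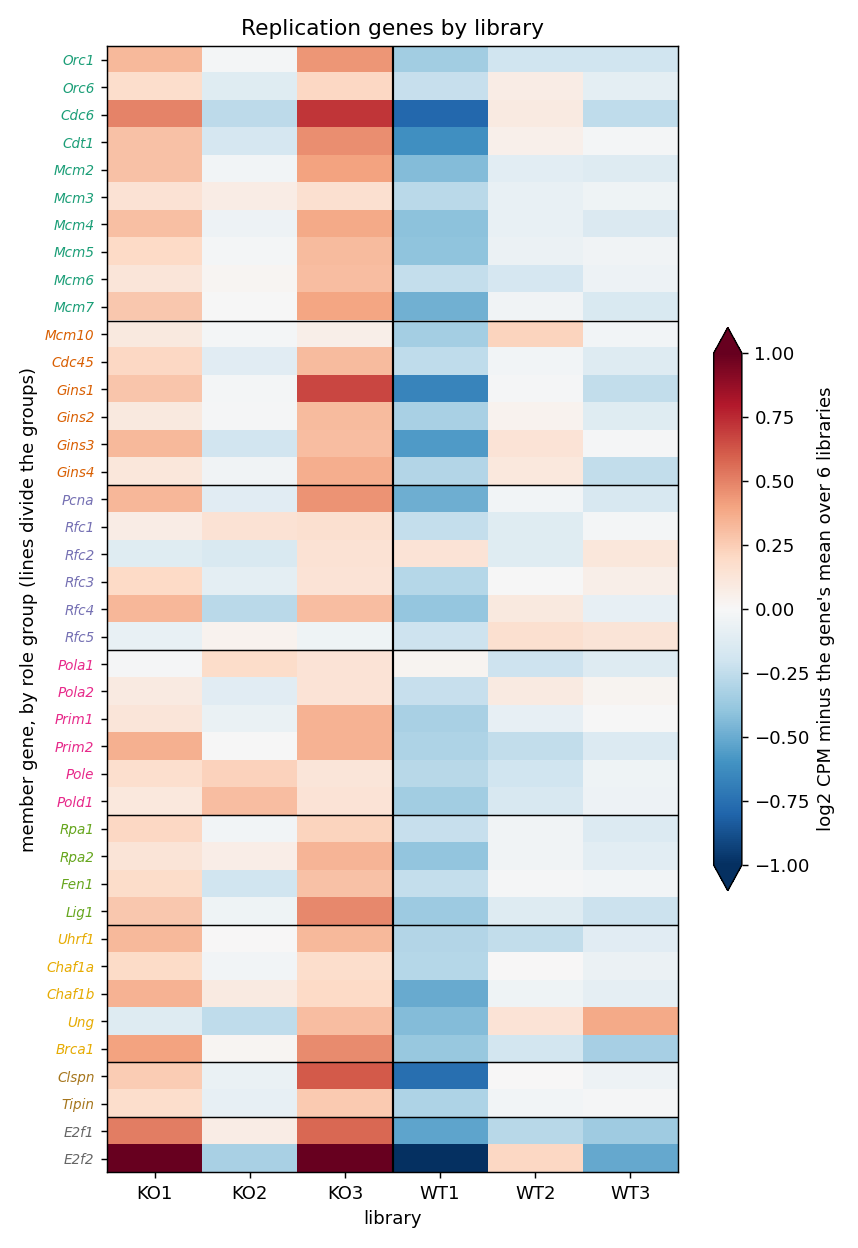
Each row is 1 of the 41 member genes, grouped by role, and each column 1 library; colour gives the log2 deviation of its CPM from the gene's mean over the 6 libraries. KO1 and KO3 are the high columns and WT1 the low column, while KO2, WT2 and WT3 lie between them.

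Ordered by the members' levels, the libraries ran from KO3 and KO1 through KO2, WT2 and WT3 to WT1. The median member deviated from its own mean over the 6 libraries by 0.20 on the log2 scale in KO1, -0.03 in KO2 and 0.32 in KO3, and by -0.34 in WT1, -0.03 in WT2 and -0.09 in WT3. KO3 was the highest library for 28 of the 41 members, KO1 for 7 and KO2 for 3 (Pola1, Pole and Pold1). WT1 was the lowest library for 39 of the 41, the exceptions being Rfc2 with its minimum in KO2 and Pola1 with its minimum in WT2. KO2 exceeded WT2 in 20 of the 41 members, beside 50.9% of all genes, with a median log2 ratio of -0.0050. KO2 exceeded WT3 in 27 members and WT1 in 40, whereas KO3 exceeded WT1, WT2 and WT3 in 41, 39 and 39 members. Within the KO group, KO1 was above KO2 in 36 members by a median log2 ratio of 0.27, and KO2 was above KO3 in 4. Within the WT group, WT1 was above WT2 in 2 members and above WT3 in 2. The largest of these within-group medians, -0.35 for KO2 over KO3, was as large in size as the median difference between the groups.

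The promoters of the origin and fork genes are shown first, because many of them hold E2F-type matches. The genes were selected by symbol as replication and E2F target genes, so their share of such matches is not independent of that choice. Promoter windows of 300 bases, from 250 before to 50 after the annotated start, were taken from RefSeq (GRCm38.p6) and could be matched for 33 of the 41 members, in 39 windows. The E2F-type motifs had 7 letters and were searched on both strands, with overlapping matches allowed. One motif was TTCCCGC. The next in the search was TTGGCGC. Another motif of the same kind read TTCGCGC. The last motif searched read TTGCCGC. At least 1 of them occurred in 26 of the 39 member windows, or 66.7%, against 16.0% of the 13572 windows of genes tested and 9.57% of all 32851 windows. The CCAAT box was present in 64.1% of member windows and 38.1% of windows of genes tested, and the cell-cycle element CHR, searched as TTTGAA, in 12.8% and 12.6%. A match describes letters and shows no binding. The 5 sequences below are the 250 bases before the start, 5′ to 3′ on the gene's strand, with E2F-type matches in capitals. First are Mcm5 (chr8:75109259-75109508, plus strand) and Mcm6 (chr1:128359706-128359955, minus strand), whose matches overlap. Next are Orc1 (chr4:108579204-108579453, plus strand) and Uhrf1 (chr17:56303087-56303336, plus strand, its first window), each with 1 match. The last is Gins3 (chr8:95633309-95633558, plus strand), which has a match and whose KO and WT levels overlapped. Levels also overlapped in other members with a match, among them Cdc6, Cdt1, Clspn and E2f2. Conversely, Mcm2 and Rpa1 had no match and no overlap between KO and WT.
Mcm5: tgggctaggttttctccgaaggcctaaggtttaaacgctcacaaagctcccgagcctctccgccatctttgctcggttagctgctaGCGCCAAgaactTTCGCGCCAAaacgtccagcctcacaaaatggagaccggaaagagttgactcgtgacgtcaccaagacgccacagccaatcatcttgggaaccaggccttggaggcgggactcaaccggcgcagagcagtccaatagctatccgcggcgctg
Mcm6: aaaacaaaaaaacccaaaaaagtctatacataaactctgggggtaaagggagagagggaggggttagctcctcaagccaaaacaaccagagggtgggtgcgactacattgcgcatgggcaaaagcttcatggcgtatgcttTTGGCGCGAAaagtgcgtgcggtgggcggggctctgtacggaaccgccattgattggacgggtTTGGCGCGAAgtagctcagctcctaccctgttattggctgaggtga
Orc1: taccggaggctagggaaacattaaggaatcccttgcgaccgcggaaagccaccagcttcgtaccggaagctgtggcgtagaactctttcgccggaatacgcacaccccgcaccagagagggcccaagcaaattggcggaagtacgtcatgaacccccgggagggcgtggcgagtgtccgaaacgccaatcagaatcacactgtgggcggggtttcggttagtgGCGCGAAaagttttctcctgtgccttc
Uhrf1: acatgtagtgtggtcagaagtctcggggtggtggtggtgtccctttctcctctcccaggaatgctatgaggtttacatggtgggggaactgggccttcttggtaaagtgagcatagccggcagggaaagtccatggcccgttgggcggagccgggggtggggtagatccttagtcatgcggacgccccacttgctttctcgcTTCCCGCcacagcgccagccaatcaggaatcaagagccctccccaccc
Gins3: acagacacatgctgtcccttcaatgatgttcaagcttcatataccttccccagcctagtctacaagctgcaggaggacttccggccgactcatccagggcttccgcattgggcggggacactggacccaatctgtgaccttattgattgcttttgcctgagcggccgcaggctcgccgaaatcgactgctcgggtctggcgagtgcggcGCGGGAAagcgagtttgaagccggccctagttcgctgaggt
The 23 members with a match in a window had a median log2 fold change of 0.36. The 10 members with a window but no match, among them Pcna, Mcm2 and Cdc45, had 0.22. E2f1 was counted among those 10, but the 250 bases before its annotated start hold protein-coding sequence. Its window may therefore miss its promoter, and the lack of a match there says nothing about it. These medians describe the 33 matched genes, and the difference was not tested.

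Among the 10 origin licensing genes, which load the replicative helicase onto DNA, all 10 had a positive log2 fold change (0.18 to 0.65, median 0.40). In 7 of them every KO library lay above every WT library, beside 13.6% of all genes. None of the 10 passed the test, with adjusted p between 0.0907 and 0.462. Orc1, the largest subunit of the origin recognition complex, stood at 66.3, 52.2 and 72.0 CPM in KO and at 41.5, 46.0 and 46.1 CPM in WT. Its groups did not overlap, and 10.8% of its exon bases are shared with Gm12743 on the other strand. Its log2 fold change of 0.51 ± 0.14 (SE) had the smallest adjusted p of the licensing genes, 0.0907. Cdc6, the ATPase that recruits the helicase, was named after its values were seen because it had the widest spread of the group. It stood at 208, 123 and 242 CPM in KO and 85.1, 156 and 123 CPM in WT, so KO2 lay below WT2 and the log2 fold change of 0.65 ± 0.30 had an adjusted p of 0.256. Orc6, another subunit of the origin recognition complex, had the lowest log2 fold change of the group, 0.18 ± 0.12, from 118, 96.3 and 121 CPM in KO and 89.0, 110.3 and 97.7 CPM in WT.

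The 6 subunits of the Mcm2 to Mcm7 ring differed by similar amounts. Mcm2 stood at 815, 651 and 880.1 CPM in KO and at 492, 619.5 and 608 CPM in WT. Mcm3 stood at 661, 629 and 668 CPM in KO and 494, 566 and 579.6 CPM in WT. Mcm4 stood at 508, 399.6 and 536 CPM in KO and 311, 392 and 374 CPM in WT. In these 3 subunits the lowest KO library was KO2, and it lay above the highest WT library. Mcm5 stood at 709, 609.7 and 768 CPM in KO and 465, 592 and 601 CPM in WT. Mcm6 stood at 974, 906 and 1109 CPM in KO and 757, 796 and 861 CPM in WT. Mcm7 stood at 531, 441 and 580.2 CPM in KO and 317, 431 and 397 CPM in WT. All 6 subunits thus had KO2 as their lowest KO library and WT1 as their lowest WT library, with no overlap between the groups. Their log2 fold changes ran from 0.26 ± 0.08 for Mcm3 to 0.45 ± 0.14 for Mcm2, and their adjusted p from 0.124 to 0.193. Per kilobase of exon the ring subunits in WT ranged from 82.4 CPM per kb for Mcm2 to 172 CPM per kb for Mcm6, the highest level of any member.

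**Figure D2:**
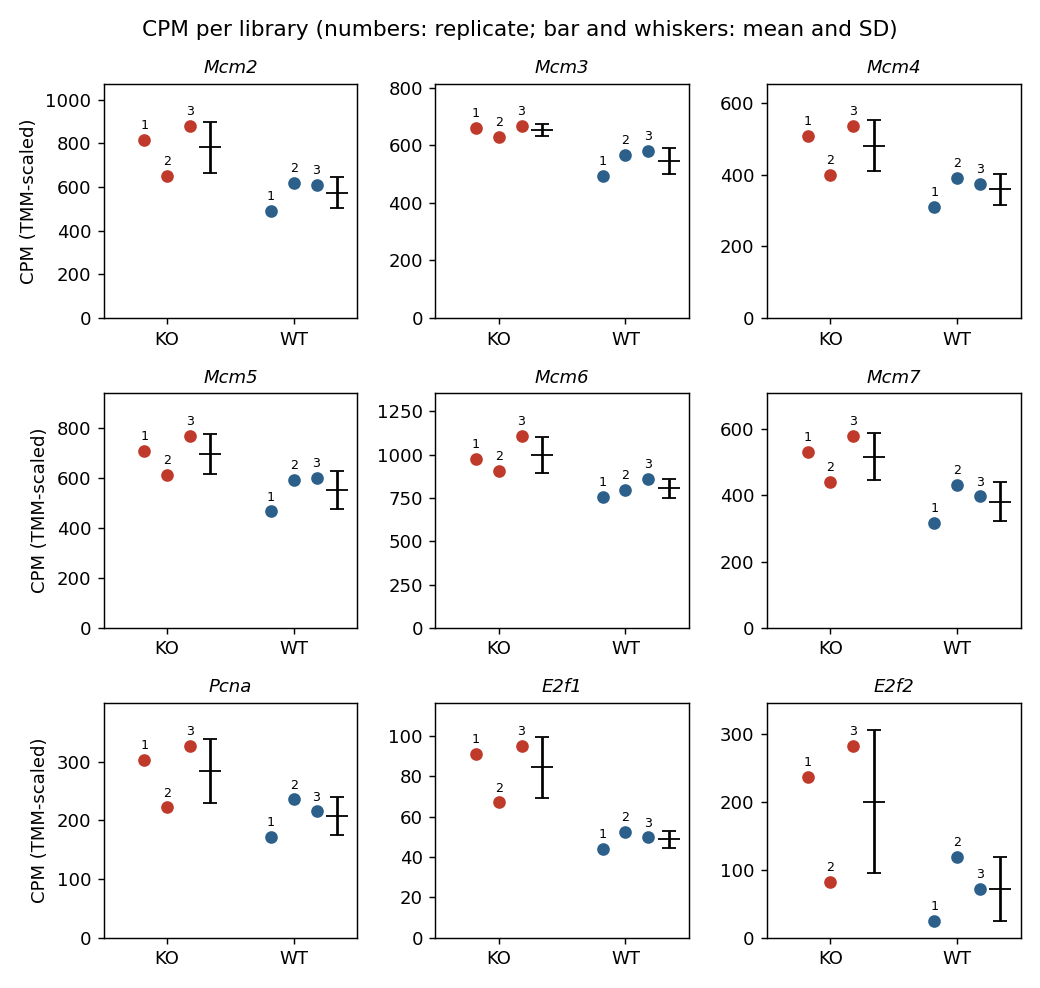
Points are the CPM of single libraries for selected members in KO and WT, with the mean ± SD (n = 3) beside them and an axis from 0 for each gene. E2f1 separates the groups with a gap, Mcm2 separates them narrowly at KO2, and E2f2 overlaps widely.

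Of the 6 helicase activation genes, all 6 had a positive log2 fold change (0.08 to 0.63, median 0.28). In 0 of the 6 did every KO library lie above every WT library, beside 13.6% of all genes. KO2 was above WT2 in 0 of the 6, beside 50.9% of all genes. Gins1, a subunit of the GINS complex that holds the active helicase together, stood at 39.9, 32.4 and 52.5 CPM in KO and 20.6, 32.5 and 27.6 CPM in WT. KO2 and WT2 were nearly level, and the log2 fold change of 0.63 ± 0.23 had an adjusted p of 0.173. Cdc45, the partner of GINS in the helicase, stood at 120.3, 96.4 and 130.1 CPM in KO and 87.2, 102 and 95.2 CPM in WT (0.28 ± 0.13, adjusted p 0.253). Mcm10, which helps the helicase start, had its highest library in WT2: 131, 121 and 127 CPM in KO and 96.4, 142 and 119.8 CPM in WT, a log2 fold change of 0.08 ± 0.14. Gins2, Gins3 and Gins4 had log2 fold changes of 0.28, 0.29 and 0.29; 67.3% of the exon bases of Gins2 are overlapped by Gse1 on the other strand, and the libraries carry no strand information.

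Of the 6 clamp and clamp loader genes, 4 had a positive log2 fold change, and the median was 0.20. In 1 of them every KO library lay above every WT library, beside 13.6% of all genes. Pcna, the sliding clamp that tethers the polymerases, stood at 303, 222 and 327 CPM in KO and 171, 235 and 215 CPM in WT, with KO2 below WT2 and a log2 fold change of 0.45 ± 0.17 (adjusted p 0.186). The pseudogene Pcna-ps2, a near-identical copy that could share reads with Pcna, stood at 1.21 to 2.05 CPM. Rfc1, the large subunit of the clamp loader, was the gene without overlap, at 153, 160.2 and 162 CPM in KO and 123, 133 and 143 CPM in WT (0.25 ± 0.08, adjusted p 0.139). Its KO libraries lay close together, with KO2 between the other KO libraries. The small loader subunits showed no common direction. Rfc2 stood at 321, 315 and 387 CPM in KO and 385, 322 and 379 CPM in WT, a log2 fold change of -0.08 ± 0.11, and Rfc5 had -0.06 ± 0.11. Rfc3 and Rfc4 had 0.15 and 0.26. Between 12.7% and 15.1% of the exon bases of Rfc4 and Rfc2 are shared with opposite-strand neighbours.

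All 6 polymerase and primase genes had positive log2 fold changes (0.07 to 0.47, median 0.31). In 3 of them every KO library lay above every WT library, beside 13.6% of all genes. KO2 was above WT2 in 5 of the 6, beside 50.9% of all genes. Prim2, the large subunit of primase, stood at 92.2, 72.0 and 91.8 CPM in KO and 58.3, 60.6 and 65.4 CPM in WT, a log2 fold change of 0.47 ± 0.12 with an adjusted p of 0.0808. Pole, the catalytic subunit of the leading-strand polymerase, stood at 116, 121 and 112 CPM in KO and 85.1, 89.8 and 100.0 CPM in WT (0.35 ± 0.09, adjusted p 0.0826). Pold1, the catalytic subunit of the lagging-strand polymerase, was named after its values were seen, at 261, 299 and 267 CPM in KO and 190.1, 217 and 234 CPM in WT (0.37 ± 0.10, adjusted p 0.0959). For Pole and Pold1, KO2 was the highest of all 6 libraries, in contrast to the Mcm ring, where it was the lowest KO library. Pola1, the catalytic subunit of the primase-associated polymerase and the X-linked member, also peaked in KO2, at 113, 128 and 125 CPM in KO and 115, 98.1 and 103 CPM in WT, with overlap at KO1. Pola2, its regulatory subunit, had the lowest log2 fold change of the group, 0.07 ± 0.11, from 179, 155 and 185 CPM in KO and 143, 179 and 171 CPM in WT.

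In the single-strand binding and lagging-strand group, all 4 genes had positive log2 fold changes (0.20 to 0.49, median 0.31). In 3 of them every KO library lay above every WT library, beside 13.6% of all genes. Lig1, which seals Okazaki fragments, stood at 280.0, 226 and 324 CPM in KO and 180.0, 212 and 199 CPM in WT (0.49 ± 0.14, adjusted p 0.103). Rpa2, a subunit of the RPA complex that coats single-stranded DNA, stood at 212, 202 and 246 CPM in KO and 147, 189 and 180.4 CPM in WT (0.36 ± 0.12, adjusted p 0.151). Rpa1, its large subunit, had a log2 fold change of 0.27, with KO2 and WT2 almost level at 314 and 312 CPM. Fen1, the flap endonuclease of fragment maturation, stood at 20.5, 15.7 and 22.1 CPM in KO and 15.2, 17.8 and 17.7 CPM in WT, and its groups overlapped (0.20 ± 0.18). The annotated antisense gene Gm10143 overlaps 78.8% of the exon bases of Fen1, so its level is uncertain.

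The 5 genes of chromatin assembly and repair at the fork spanned log2 fold changes of -0.08 to 0.61 with a median of 0.41. In 3 of them every KO library lay above every WT library, beside 13.6% of all genes. Brca1, which protects stalled forks and promotes recombination, stood at 81.5, 62.3 and 85.4 CPM in KO and 47.3, 54.1 and 48.9 CPM in WT (0.61 ± 0.14, adjusted p 0.0621). Uhrf1, which brings the maintenance methyltransferase to newly copied DNA, stood at 343, 274 and 342 CPM in KO and 223, 229.9 and 253 CPM in WT (0.44 ± 0.11, adjusted p 0.0745). In both genes KO2 lay above the highest WT library, and neither passed the threshold. Chaf1b and Chaf1a, subunits of the chromatin assembly factor, had 0.41 and 0.22, and 52.5% of the exon bases of Chaf1a are shared with Ubxn6 on the other strand. Ung, which removes uracil from DNA, was the member with the lowest level per length, 2.01 CPM per kb in WT, and had its highest library in WT3: 9.52, 8.69 and 13.1 CPM in KO and 7.63, 11.6 and 13.8 CPM in WT (-0.08 ± 0.28). Of the fork checkpoint genes, Clspn, the adaptor for Chek1, stood at 46.8, 37.3 and 60.0 CPM in KO and 22.9, 39.3 and 37.8 CPM in WT (0.53 ± 0.25, adjusted p 0.278). Tipin, which stabilises paused forks, stood at 293, 246 and 311 CPM in KO and 209, 255 and 257 CPM in WT (0.24 ± 0.12, adjusted p 0.310). In both checkpoint genes KO2 lay below WT2.

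**Figure D3:**
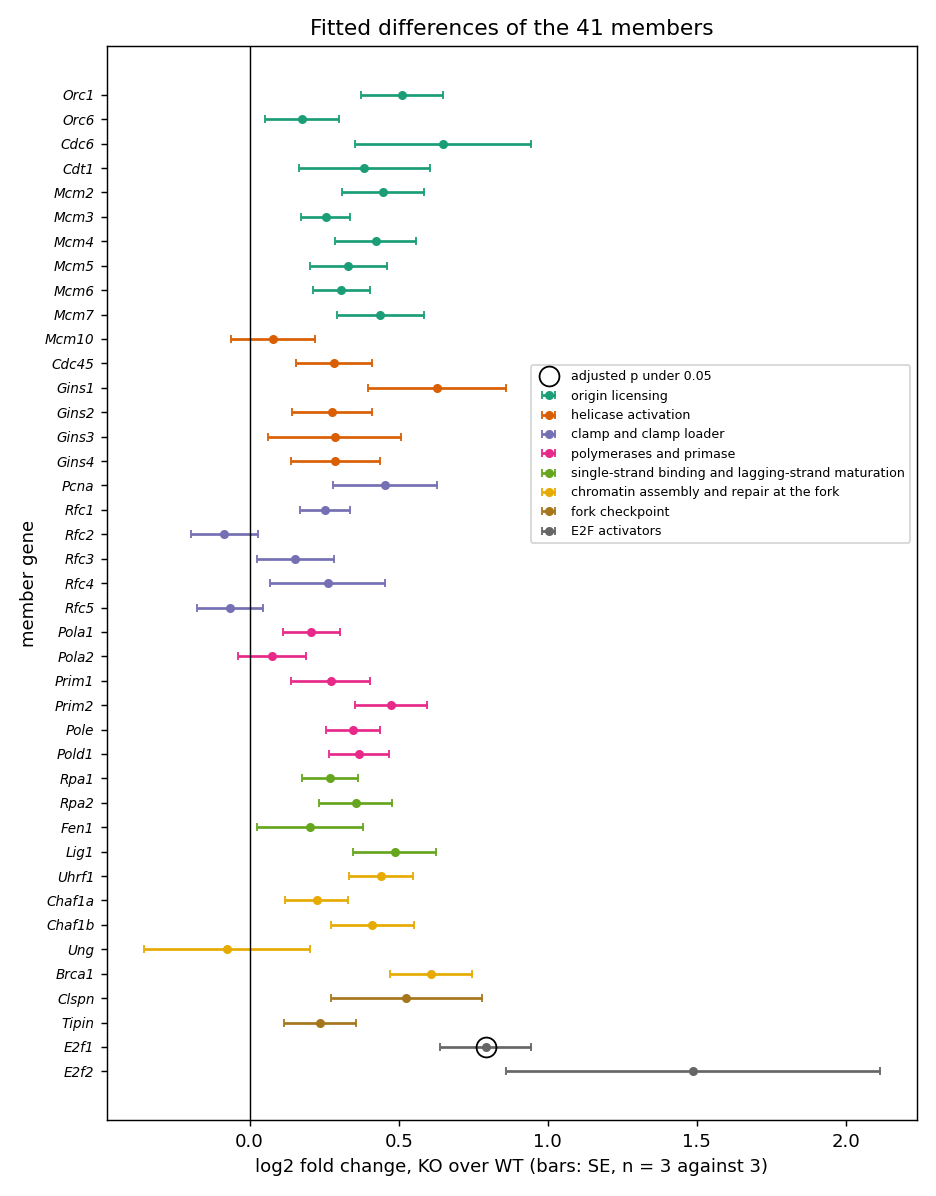
Points are log2 fold changes of KO over WT for the 41 members in role order, bars are standard errors (3 libraries against 3), and a ring marks an adjusted p under 0.05. All positive values but those of E2f1 and E2f2 lie between 0 and 0.65, E2f1 alone is ringed, and E2f2 has the largest value, 1.49, with the widest bar.

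E2f1 and E2f2, activators of the S-phase programme, had the largest log2 fold changes of the 41 members. E2f1 stood at 90.9, 67.0 and 95.1 CPM in KO and at 44.1, 52.4 and 49.6 CPM in WT. KO2, the lowest KO library, lay above the highest WT library, WT2. E2f1 rose 1.73-fold in KO (log2 fold change 0.79 ± 0.15, adjusted p 0.0425). That call was kept without KO2 (adjusted p 0.0257) and lost without KO1 (0.133), KO3 (0.130), WT1 (0.0983), WT2 (0.0907) or WT3 (0.156), and it was missed by limma-voom (0.0517). E2f2 stood at 237, 81.6 and 283 CPM in KO and 24.5, 118 and 71.7 CPM in WT. Its fitted ratio was larger, 2.80-fold, but KO2 lay below WT2, the coefficient of variation was 52.6% in KO and 65.6% in WT, and the log2 fold change of 1.49 ± 0.63 had an adjusted p of 0.225.

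Beyond the 41 members, 84 other genes of the same pathway were counted in 7 lists. Of these, 5 were higher in KO past the threshold and 0 were lower, beside 1.64% and 1.92% of all genes. A positive log2 fold change was found in 68, beside 50.9% of all genes, and the median was 0.24. Tfdp2, a DP protein that dimerises with E2F factors, rose 3.18-fold, from 39.0, 45.2 and 43.6 CPM in WT to 165.9, 95.4 and 144.6 CPM in KO (log2 fold change 1.67 ± 0.20, adjusted p 0.0154). Even KO2, the lowest KO library, lay well above every WT library for this gene. Rbl1, the pocket protein p107, rose 1.41-fold, from 80.7, 88.2 and 86.5 CPM in WT to 119, 112 and 129 CPM in KO (adjusted p 0.0342). Dnmt1, the maintenance DNA methyltransferase, rose 1.36-fold, from 434, 439.9 and 474 CPM in WT to 593, 606 and 639 CPM in KO (adjusted p 0.0267). Chek1, the S-phase checkpoint kinase, rose from 31.4, 29.6 and 32.8 CPM in WT to 49.8, 43.4 and 47.3 CPM in KO (log2 fold change 0.59 ± 0.11, adjusted p 0.0369). Brca2, which loads the recombinase at broken forks, rose from 34.5, 40.4 and 44.8 CPM in WT to 62.5, 59.1 and 58.3 CPM in KO (log2 fold change 0.59 ± 0.12, adjusted p 0.0478). In all 5 of these genes KO2 lay above every WT library. Passing the test favours separated groups, so this separation follows in part from how the 5 were picked.

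The 5 calls came from 3 lists: 2 of 11 E2F, DP and pocket proteins, 2 of 14 checkpoint and recombination genes and 1 of 8 chromatin genes, with medians of 0.18, 0.30 and 0.19. No gene of the other lists passed the test. The 9 genes of deoxynucleotide supply had 0 calls, 8 positive log2 fold changes and a median of 0.33. Tk1, thymidine kinase, had 0.70 ± 0.22 (adjusted p 0.127), and Rrm1, the large subunit of ribonucleotide reductase, 0.33 ± 0.11 (adjusted p 0.156). The 9 S-phase cyclins and regulators had 0 calls and a median of 0.35, with Cdk2, the S-phase kinase, at 0.34 ± 0.09 (adjusted p 0.0849) and Cdkn1b, an inhibitor of that kinase, at 1.00 ± 0.28 (adjusted p 0.0979). The 19 other fork subunits had 0 calls and a median of 0.24, led by Atad5, which unloads the clamp, at 0.56 ± 0.16 (adjusted p 0.104), and Rnaseh2b, an RNase H2 subunit, at 0.34 ± 0.12 (adjusted p 0.153). The 14 other origin and firing factors had a median of 0.04 and 0 calls, with Cdc7, the kinase that fires origins, at 0.30 ± 0.11 (adjusted p 0.177) and Donson, a replisome assembly factor, at 0.70 ± 0.32 (adjusted p 0.255). For comparison, 20 mitosis genes had 17 positive log2 fold changes, beside 50.9% of all genes, and a median of 0.29. Their 3 calls were all higher, beside 1.64% of all genes: Cenpf (1.41-fold, adjusted p 0.0318), Kif11 (1.39-fold, adjusted p 0.0452) and Top2a (1.37-fold, adjusted p 0.0459).

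**Figure D4:**
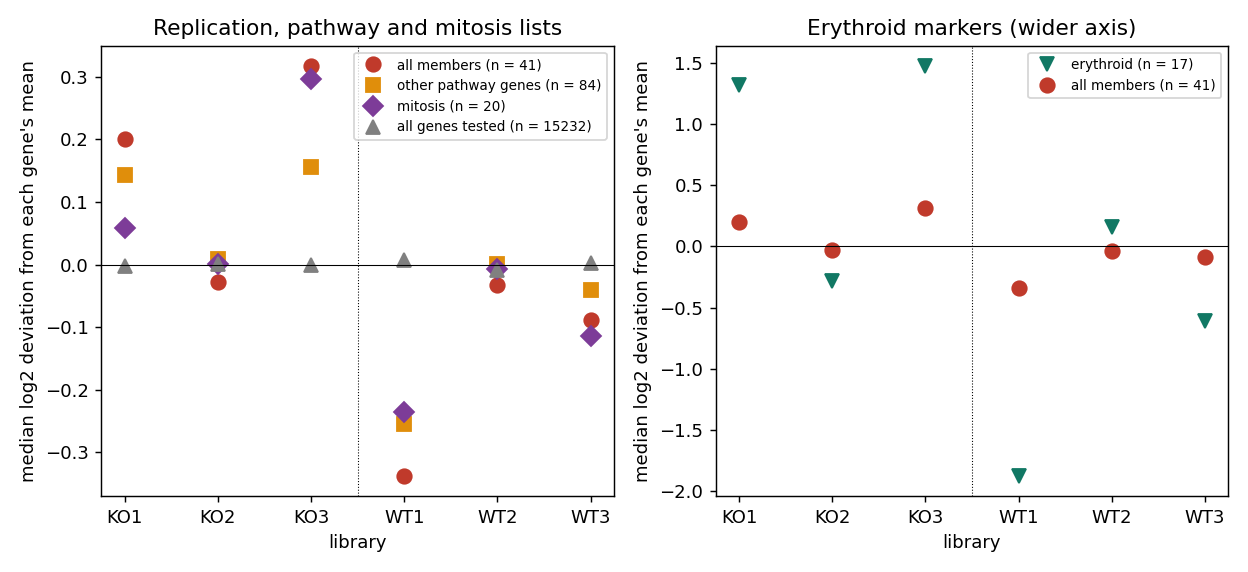
Points give each library's median log2 deviation from the gene means for the members, other pathway genes and mitosis genes (left) and the erythroid markers (right, wider axis). The members order the libraries KO3, KO1, then KO2, WT2 and WT3, then WT1, and the erythroid markers also have KO3 and KO1 highest and WT1 lowest.

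Markers of the erythroid lineage were also highest in KO3 and KO1 and lowest in WT1. The median of the 17 erythroid markers deviated by 1.32, -0.28 and 1.47 on the log2 scale in KO1, KO2 and KO3 and by -1.88, 0.16 and -0.61 in WT1, WT2 and WT3, so KO2 lay below WT2. None of the 17 was called, 16 had a positive log2 fold change, and none was at 0 in all libraries. With the mean level of these markers as a covariate in the fit, 27 of the 41 members had a positive log2 fold change, beside 51.4% of all genes, their median was 0.052 (quartiles -0.074 and 0.18), and no member was called, where 0.893% of all genes were called higher. E2f1 then had a log2 fold change of 0.48 and an adjusted p of 0.120, and E2f2 one of -0.0048. Tfdp2 was still called, at 1.26 ± 0.18 with an adjusted p of 0.0380. With 6 libraries and a covariate that itself differs between KO and WT, the part of the erythroid markers in the members' levels was not tested. Of the tested T and NK, B, and macrophage and dendritic cell markers, 6 of 11, 3 of 7 and 4 of 11 were called higher in KO, beside 1.64% of all genes, and 0 were called lower. Every KO library lay above every WT library in 9, 6 and 9 of them, beside 13.6% of all genes. The summed B cell markers stood at 57.1 to 155 CPM in KO and 5.45 to 39.7 CPM in WT, and the macrophage and dendritic cell markers at 94.8 to 194 and 22.6 to 40.1 CPM. The sum of the T and NK markers, 738 to 1046 CPM in KO and 692 to 846 CPM in WT, was mostly Nkg7, which had a log2 fold change of 0.11; the other 11 markers summed to 13.5 to 37.4 CPM in KO and 1.66 to 7.85 CPM in WT. Among them, Cd3d rose 16.8-fold, from 9, 3 and 7 counts in WT to 130, 39 and 124 counts in KO (adjusted p 0.0323). Il2rb rose 17.8-fold, from 26, 7 and 15 counts in WT to 436, 179 and 170 counts in KO (adjusted p 0.0247). The size of both folds rests on few WT counts. Klrb1c went the other way, with a log2 fold change of -1.84 (adjusted p 0.191), and stood at 6.06 CPM in WT1. Cd4, Ncr1 and Pax5 were at 0 in all WT libraries. Neutrophil markers summed to 15.5 to 212 CPM in KO and 110 to 775 CPM in WT, with 0 of 8 called. The 775 CPM was WT1, against 143 CPM in WT2 and 110 CPM in WT3. Their median log2 fold change was -2.04, and in 3 of the 8 every KO library lay below every WT library, beside 14.4% of all genes. The part of these cells in the members' levels was not tested.

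Leaving out KO2 moved the numbers of called and of non-overlapping members more than leaving out any other library. Without KO2, 6 members were called higher (Brca1, E2f1, Lig1, Orc1, Prim2 and Uhrf1), beside 2.32% of all genes, and 34 of the 41 had no overlap, beside 21.2% of all genes. Without KO2 and WT2 together, 3 members were called (Brca1, E2f1 and Lig1), beside 2.7% of all genes, 37 had no overlap, beside 27% of all genes, and the median was 0.47. With WT1 left out the median was 0.20, and 0 members were called without KO1, KO3, WT1, WT2 or WT3, where 0.295%, 0.237%, 0.676%, 0.424% and 0.081% of all genes were called higher. Without WT3, 15 members had no overlap, beside 16.1% of all genes. DESeq2 called 11 members higher on all 6 libraries, beside 7.06% of all genes: Brca1, E2f1, Lig1, Mcm2, Mcm4, Mcm7, Orc1, Pold1, Pole, Prim2 and Uhrf1. On the same libraries limma-voom called 0 members, beside 1.34% of all genes, and a fit with the replicate number as a block called 0, beside 0.0525%. E2f1 was the member called with RLE, upper-quartile and plain-total scaling, without the filter on low counts, with 1 CPM required in 3 libraries, and without X- and Y-linked genes, beside 1.66%, 1.63%, 1.45%, 0.995%, 2.17% and 1.59% of all genes.

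**Figure D5:**
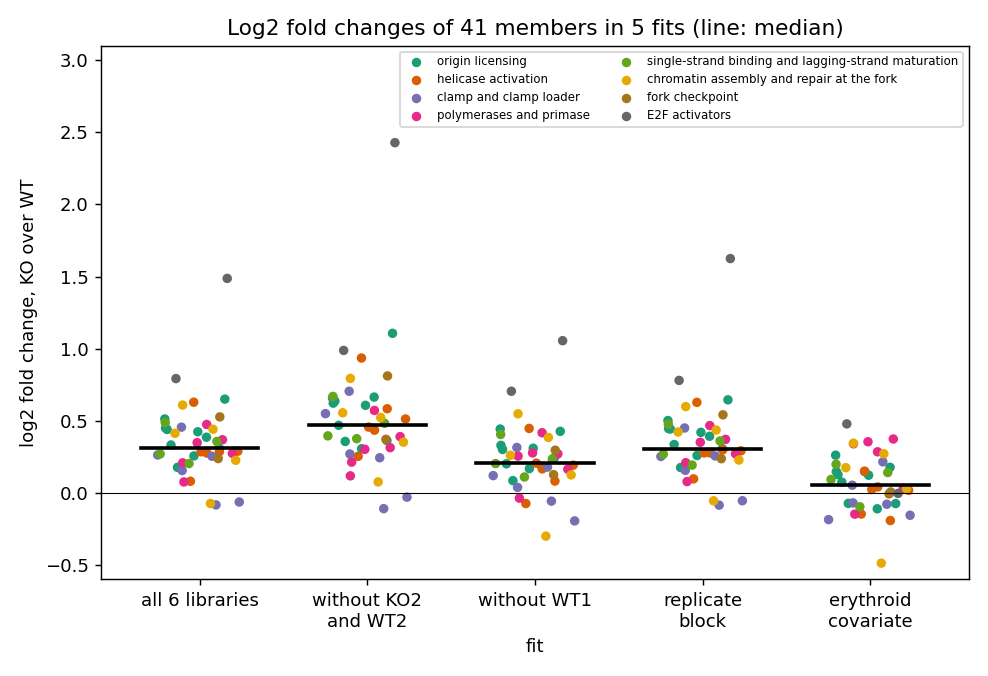
Points are the log2 fold changes of the 41 members in 5 fits and the line is their median. The median is 0.31 with all libraries, 0.47 without KO2 and WT2, 0.20 without WT1, 0.31 with the replicate block, and 0.052 with the erythroid covariate.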

How the data were processed

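Per the labels' protocols, 1 table of read counts was deposited for 6 poly(A) libraries made with SMARTer and Nextera XT chemistry, which marks neither strand nor molecules, so counting errors exclude amplification. Reads went through STAR 2.7.9a after fastp 0.23.1, and the authors counted with featureCounts (Subread 2.0.1), per the submitters' processing notes, with settings, build and annotation not given in the sources used here. Deposited counts were used unchanged. Genes were filtered with filterByExpr by group (minimum count 10, minimum total 15), scaled by TMM and tested with edgeR 4.0.16 under R 4.3.3 (quasi-likelihood, robust, Benjamini-Hochberg, threshold 0.05). CPM uses TMM-scaled totals, and library deviations add a pseudocount of 0.5. SE is that of the log2 fold change. The biological coefficient of variation was 32.27%. Exon lengths and overlaps came from GENCODE M21. The code was tested on simulated data. Some marker genes are not reported here by name. Alternatives were DESeq2 1.42.0, limma 3.58.1, other scalings and filters, a replicate block, an erythroid covariate, removal of X- and Y-linked genes, and omitted libraries.

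The members and lists were chosen with earlier results of these data known. Every library's value is given for Mcm2 to Mcm7, Pcna, E2f1, E2f2, each called member, and in each role group the 2 members with the smallest p and the 1 with the lowest log2 fold change; outside the members, each called gene was named, or the 2 with the smallest p in a list without calls.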

Additional observations from a re-analysis of the deposited data

How the results depend on the processing

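With RLE, upper-quartile or plain-total scaling, without the filter on low counts, with 1 CPM required in 3 libraries, or without X- and Y-linked genes, 1 member was called higher. That number was 11 with DESeq2, 0 with limma-voom, 0 with the erythroid covariate, 3 without KO2 and WT2 together, and 0 to 6 when each library was left out in turn. The 8 calls among pathway and mitosis genes became 20 with DESeq2, 1 with the covariate, and 0 to 11 over the single omissions. The share of all genes called higher also moved. It was 1.64% in the edgeR fit of all 6 libraries, 7.06% with DESeq2, 0.893% with the covariate, and 0.081% to 2.32% over the single omissions. The members' median of 0.31 became 0.052 with the covariate and ranged from 0.20 to 0.39 over single omissions. Members without overlap numbered 18, beside 13.6% of all genes, and 37 without KO2 and WT2 together, beside 27%. Over single omissions they ranged from 15 (without WT3, beside 16.1%) to 34 (without KO2, beside 21.2%).

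The replicate number as a block left 0 members and 0 pathway or mitosis genes called, where 0.0525% of all genes were called higher. The members' median was then 0.31 (E2f1 adjusted p 0.134). Deviations of same-numbered libraries correlated at 0.05, -0.24 and -0.09 across genes. KO1 correlated best with WT1, but so did KO2 (0.14), and KO3 correlated best with WT2 (0.29). Nothing in the labels pairs the libraries.

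Log2 fold changes turned negative with the covariate for 11 members: Orc6 (-0.074), Cdc6 (-0.075), Cdt1 (-0.11), Mcm10 (-0.15), Gins3 (-0.19), Rfc3 (-0.070), Rfc4 (-0.19), Pola2 (-0.15), Fen1 (-0.098), Tipin (-0.0081) and E2f2 (-0.0048). Over single omissions they ranged from -0.075 (without WT1) to 0.22 for Mcm10, from -0.038 (without WT1) to 0.14 for Pola2 and from -0.30 to 0.10 for Ung, which was positive without KO2 (0.029), without WT3 and without both KO2 and WT2 (0.075). The cause was not tested. The lowest count of any member was 385, where counting error alone is 5.10%. With 3 libraries a group, the members' median within-group coefficient of variation was 13.5% in KO and 11.6% in WT. What limited the calls was not tested.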
